A study of Mus musculus with 13 samples.

Results

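The genes described here are 10 genes of granulosa cell endocrine function, measured in pools of mouse oocytes and eggs. They were chosen by name as a gauge of RNA from the somatic cells of the follicle. All 10 were found among the 54232 genes counted, and all 10 passed the filter on low counts that left 20143 genes for testing. They comprise the gonadotropin receptor gene Fshr, the transcription factor genes Foxl2 and Nr5a2, the steroid synthesis genes Star, Cyp11a1, Hsd3b1 and Cyp19a1, and the inhibin and activin subunit genes Inha, Inhba and Inhbb.

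Polyadenylated RNA was sequenced from 13 pools of 25 cells each, in 4 groups. Germinal vesicle (GV) oocytes are full-grown oocytes arrested in meiotic prophase. They were taken from Null mice (3 libraries) and from wild-type (WT) mice (3 libraries). Metaphase II (MII) eggs have completed maturation and were taken after superovulation from Null mice (4 libraries) and from WT mice (3 libraries). Null mice carry a deletion, made with Cas9, of the promoter of the long noncoding RNA Sirena1 (C86187 in the gene table). All 13 libraries carry the strain label C57BL6/J, while the protocol names both that strain and C57BL/6NCrl. The labels used here give no age and no number of mice per pool, and do not say whether the Null mice stem from 1 founder. They also do not say that the pools of a group came from separate mice, so p-values measure only the spread between these pools.

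Granulosa cells surround the oocyte in the follicle, and those nearest to it, the cumulus cells, contact it through projections that cross the zona pellucida. Follicle-stimulating hormone acts on them through its receptor. They take up and convert cholesterol to progesterone through STAR, CYP11A1 and 3β-hydroxysteroid dehydrogenase, and convert androgens from theca cells to oestrogen with aromatase, the product of Cyp19a1. They also secrete inhibins, dimers of the alpha subunit with a beta subunit that restrain pituitary release of follicle-stimulating hormone, and activins, dimers of the beta subunits. Oocyte pools freed from cumulus cells should hold little RNA of these somatic genes unless the oocyte itself transcribes them.

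Total counts per library lay between 30867614 and 41285507, and the detection limit, set at 3 counts, came to 0.0727 to 0.0972 CPM of these totals. CPM are counts scaled to library size. Apart from this limit they were scaled with TMM factors, and no level is compared between genes, since no transcript lengths were used. Sirena1 stood at 23.3 to 26.4 CPM in GV Null against 2912 to 3092 CPM in GV WT, and at 35.9 to 45.0 CPM in MII Null against 4271 to 4693 CPM in MII WT. The 8 oocyte markers on a reference list summed to 10040 to 10978 CPM in GV Null, 9936 to 10848 CPM in GV WT, 7656 to 8426 CPM in MII Null and 7522 to 8819 CPM in MII WT. In the somatic genes GV Null replicates 2 and 3 stood apart from GV Null replicate 1, and MII Null replicate 4 from the rest of its group. Results that rest on these libraries are also given without them. Over all genes GV Null replicate 1 differed more from replicates 2 and 3 (chi-square per degree of freedom 38.3 and 29.3) than these from each other (11.3). With 3 libraries it cannot be told which is typical of the Null.

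The 10 genes behaved in 2 ways. Cyp19a1 and Nr5a2 were present at a steady level in all 13 libraries, with the highest library 1.59-fold above the lowest for Cyp19a1 and 1.58-fold for Nr5a2. The other 8 genes varied widely, with a ratio of highest to lowest of 8.17 for Fshr, 49.4 for Star, 232 for Hsd3b1, 351 for Inhba and 851 for Cyp11a1. Inha was at 0 counts in 5 libraries, Foxl2 in 5 and Inhbb in 6, all of them MII eggs. The coefficient of variation over the 13 libraries was 14.8% for Cyp19a1 and 16.5% for Nr5a2, against 67.9% for Fshr, the least variable of the 8. Cyp19a1 and Nr5a2 were no lower in MII WT, where Inha, Inhbb and Foxl2 were at 0 counts, than in GV WT. Among GV libraries Nr5a2 was highest in GV Null replicates 2 and 3, at 79.1 and 63.7 CPM. The part of somatic RNA in the levels of these genes was not tested.

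**Figure D1:**
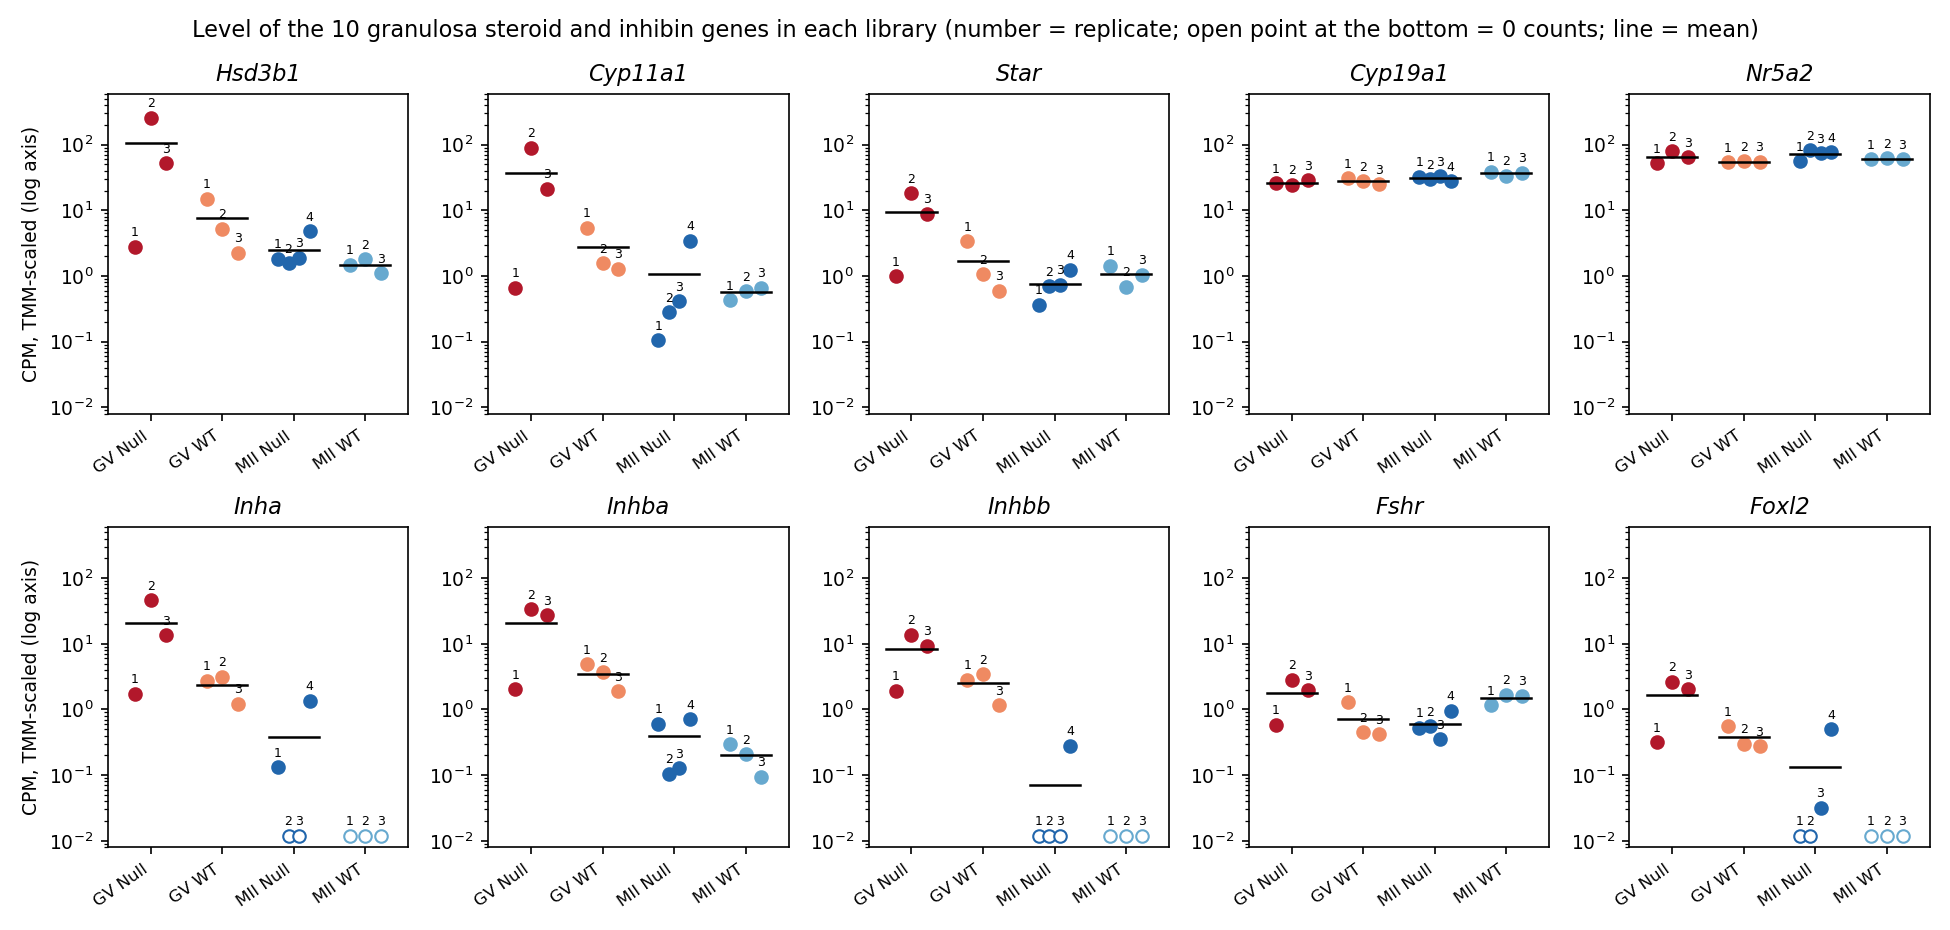
Level of each of the 10 genes in every library, in TMM-scaled CPM on a log axis, with the replicate number above each point, the group mean as a line and libraries at 0 counts drawn as open points at the bottom. GV Null replicates 2 and 3 are the highest libraries for Hsd3b1, Cyp11a1, Star, Inha, Inhba, Inhbb, Fshr and Foxl2, while Cyp19a1 and Nr5a2 form a nearly flat line across the 13 libraries.

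The promoter windows of the steady genes and of 3 of the uneven genes are shown so that their letters can be compared. RefSeq sequences of the build GRCm38.p6 gave a window for 9 of the 10 genes, and for 7 of them a window that lies outside the gene. Each window holds the 250 bases before the annotated start, 5′ to 3′ on the gene's strand. Capitals mark 4 short motifs searched on both strands: AGGTCA, the partial site bound by nuclear receptors of the NR5A family, TGACG, the partial site of cyclic AMP response elements, GATAA, the core bound by GATA factors, and CACGTG, an E-box. The motifs do not overlap in these windows. A match is only a match of letters, and such short motifs are common. Of 32851 promoter windows of the same length, 14% held AGGTCA, 17.8% TGACG, 22.6% GATAA and 6.02% CACGTG. The windows are as follows.
Cyp19a1, chr9:54268165-54268414, minus strand: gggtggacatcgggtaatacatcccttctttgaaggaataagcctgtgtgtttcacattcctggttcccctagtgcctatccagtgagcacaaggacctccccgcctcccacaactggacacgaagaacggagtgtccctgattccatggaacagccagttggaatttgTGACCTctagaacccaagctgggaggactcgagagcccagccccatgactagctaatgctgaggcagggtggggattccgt
Nr5a2, chr1:136960449-136960698, minus strand: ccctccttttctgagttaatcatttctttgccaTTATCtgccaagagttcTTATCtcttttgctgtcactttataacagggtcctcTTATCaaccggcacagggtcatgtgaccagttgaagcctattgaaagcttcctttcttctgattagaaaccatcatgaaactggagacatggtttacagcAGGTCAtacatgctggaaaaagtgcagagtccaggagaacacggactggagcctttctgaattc
Hsd3b1, chr3:98859795-98860044, minus strand: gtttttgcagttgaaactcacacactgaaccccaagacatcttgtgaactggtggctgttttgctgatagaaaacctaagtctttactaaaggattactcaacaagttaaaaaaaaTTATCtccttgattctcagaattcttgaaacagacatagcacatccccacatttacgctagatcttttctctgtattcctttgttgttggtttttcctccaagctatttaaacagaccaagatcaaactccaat
Cyp11a1, chr9:57997774-57998023, plus strand: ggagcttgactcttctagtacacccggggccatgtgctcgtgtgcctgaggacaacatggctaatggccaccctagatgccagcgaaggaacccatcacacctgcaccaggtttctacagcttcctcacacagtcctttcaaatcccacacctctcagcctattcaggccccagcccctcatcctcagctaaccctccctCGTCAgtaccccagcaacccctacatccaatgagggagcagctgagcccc
Fshr, chr17:89200676-89200925, minus strand: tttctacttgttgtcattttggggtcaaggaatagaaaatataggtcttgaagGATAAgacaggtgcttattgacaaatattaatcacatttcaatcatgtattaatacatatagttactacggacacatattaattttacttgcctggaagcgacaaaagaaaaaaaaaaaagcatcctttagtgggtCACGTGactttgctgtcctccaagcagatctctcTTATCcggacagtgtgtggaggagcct
In the windows shown both steady genes hold AGGTCA. In Nr5a2 it stands on the gene's own strand, 64 to 59 bases before the start. In Cyp19a1 it stands on the other strand, 81 to 76 bases before the start. Hsd3b1 holds 1 GATAA on the other strand, 134 to 130 bases before the start. Cyp11a1 holds 1 TGACG on the other strand, 50 to 46 bases before the start. Fshr holds the E-box 61 to 56 bases before the start, with a GATAA on either side of it. Nr5a2 also holds 3 copies of GATAA on the other strand. The further windows of Cyp19a1 and Nr5a2, which lie inside the genes' spans, hold none of the 4 motifs and are not shown. The windows of Inhbb and Foxl2, which lie outside the genes, hold none of them either and are not shown. AGGTCA is not particular to the steady genes: it stands on the gene's own strand in the window of Inha, 69 to 64 bases before the start, and in a second window of Cyp11a1, 28 to 23 bases before that start, both inside the genes' spans and not shown.

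Fshr, the receptor through which follicle-stimulating hormone acts on granulosa cells (chromosome 17, 88984952 to 89200675, ENSMUSG00000032937), was low throughout. In GV Null oocytes it had 0.59, 2.86 and 1.98 CPM, against 1.30, 0.45 and 0.42 CPM in GV WT oocytes. In MII Null eggs it had 0.52, 0.56, 0.35 and 0.96 CPM, against 1.16, 1.69 and 1.62 CPM in MII WT eggs. Replicates 2 and 3 of GV Null were the highest of all, and replicate 1 lay within the GV WT values. In eggs all 4 Null libraries lay below all 3 WT libraries, which was not so for any of the other 7 uneven genes. The counts behind these values were 24, 109 and 72 in GV Null, 58, 18 and 17 in GV WT, 20, 16, 11 and 31 in MII Null, and 35, 49 and 51 in MII WT.

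Foxl2, which encodes a forkhead factor that maintains granulosa cell identity (chromosome 9, 98955607 to 98958126, ENSMUSG00000050397), had 0.32, 2.65 and 2.03 CPM in GV Null and 0.56, 0.30 and 0.27 CPM in GV WT. In MII Null it had 0, 0, 0.03 and 0.50 CPM, and all 3 MII WT libraries were at 0. Foxl2 was therefore found in every GV library and, among eggs, beyond a single count only in MII Null replicate 4, with 16 counts. Its antisense neighbour Foxl2os, singled out after its values were seen, had 2, 122 and 46 counts in GV Null and 29, 1 and 0 in GV WT. In eggs Foxl2os had 18 counts in MII Null replicate 4 and 0 in the other 6 libraries. Whether the counting used strand is not given in the sources used here, so reads of Foxl2 and Foxl2os cannot be told apart.

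Nr5a2, which encodes LRH-1, an orphan nuclear receptor needed in granulosa cells for ovulation and also present in early mouse embryos (chromosome 1, 136842562 to 136960448, ENSMUSG00000026398), had 52.3, 79.1 and 63.7 CPM in GV Null. It had 54.1, 55.3 and 55.0 CPM in GV WT. In MII Null it had 56.4, 82.6, 74.3 and 76.5 CPM, against 59.9, 62.2 and 59.4 CPM in MII WT. The WT libraries lay close together at both stages, and the Null libraries were spread more widely, with replicate 1 lowest at both stages. GV Null replicates 2 and 3 were 1.44-fold and 1.16-fold above the GV WT mean, far less than the same libraries were for Hsd3b1. MII Null replicates 2 and 3, which had 0 counts of Inha and Inhbb, had as much Nr5a2 as MII Null replicate 4.

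Star encodes the protein that moves cholesterol to the inner mitochondrial membrane (chromosome 8, 25808474 to 25815982, ENSMUSG00000031574). It had 0.98, 18.2 and 8.82 CPM in GV Null and 3.40, 1.05 and 0.60 CPM in GV WT. In eggs it had 0.37, 0.70, 0.73 and 1.24 CPM in MII Null and 1.42, 0.69 and 1.05 CPM in MII WT. Both GV Null replicates 2 and 3 were above every other library, and GV Null replicate 1 lay inside the GV WT range. Star remained detectable in all 7 egg libraries, at 14 counts or more.

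Cyp11a1 encodes the side-chain cleavage enzyme that makes pregnenolone from cholesterol (chromosome 9, 57998024 to 58027031, ENSMUSG00000032323). It had 0.66, 89.3 and 21.2 CPM in GV Null and 5.42, 1.58 and 1.30 CPM in GV WT. In eggs it had 0.10, 0.28, 0.41 and 3.42 CPM in MII Null and 0.43, 0.59 and 0.67 CPM in MII WT. The 3 GV Null libraries thus included both the lowest and the highest GV values. MII Null replicate 4 was above all other eggs and above 2 of the 3 GV WT libraries. The gene's span contains the pseudogene Gm17322, which was counted at 4.07 to 6.29 CPM in all 13 libraries and did not follow Cyp11a1.

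Hsd3b1 encodes the 3β-hydroxysteroid dehydrogenase that makes progesterone from pregnenolone (chromosome 3, 98842356 to 98859794, ENSMUSG00000027871). It had 2.80, 258.0 and 51.8 CPM in GV Null and 15.05, 5.24 and 2.27 CPM in GV WT. In eggs it had 1.84, 1.58, 1.91 and 4.79 CPM in MII Null and 1.49, 1.79 and 1.11 CPM in MII WT. Hsd3b1 alone made up 45.4% of the counts of the 10 genes in GV Null replicate 2 and 22.7% in GV Null replicate 3, against 3.14% in GV Null replicate 1 and 2.55% to 12.4% in GV WT. Its close relatives did not rise nearly as far. Among GV libraries Hsd3b4, Hsd3b5 and Hsd3b6 were highest in GV Null replicate 2, at 0.97, 0.31 and 2.91 CPM, and Hsd3b2 and Hsd3b3 were not. Hsd3b6 had 45 to 118 counts and 1.12 to 4.07 CPM over the 13 libraries, and Hsd3b2, Hsd3b3, Hsd3b4 and Hsd3b5 had between 1 and 50 counts. How reads that map to several of these genes were assigned is not given in the sources used here, so the level of Hsd3b1 near 1 to 2 CPM in eggs is uncertain.

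Cyp19a1, which encodes aromatase (chromosome 9, 54165937 to 54268164, ENSMUSG00000032274), had 25.9, 24.4 and 28.5 CPM in GV Null and 30.6, 27.7 and 24.9 CPM in GV WT. In eggs it had 32.5, 29.8, 33.2 and 27.9 CPM in MII Null and 38.8, 33.6 and 37.1 CPM in MII WT. It was the only gene of the 10 whose level in GV Null replicate 2 was below its GV WT mean, at 0.880 of it. Its mean level in eggs was not lower than in GV oocytes of the same genotype, although Hsd3b1, Cyp11a1, Inha and Inhba were all lower in MII WT than in any GV WT library. The lncRNA gene Gm51676, which RefSeq places over the start of Cyp19a1, was not analysed here.

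Inha encodes the alpha subunit found in all inhibins (chromosome 1, 75507077 to 75510366, ENSMUSG00000032968). It had 1.74, 46.4 and 13.6 CPM in GV Null and 2.75, 3.13 and 1.22 CPM in GV WT. In MII Null it had 0.13, 0, 0 and 1.37 CPM, and all 3 MII WT libraries were at 0. A count of 0 in an MII WT library allows up to 3 counts, 0.0993 CPM on average. Inha was therefore a gene with reads in all 6 GV libraries and, among eggs, in MII Null replicates 1 and 4 only, with 5 and 44 counts.

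Inhbb, for the beta B subunit (chromosome 1, 119415463 to 119422248, ENSMUSG00000037035), had 1.94, 13.7 and 9.37 CPM in GV Null and 2.84, 3.46 and 1.17 CPM in GV WT. Among eggs it had counts in 1 library, MII Null replicate 4, with 9 counts or 0.28 CPM. Inhba, for the beta A subunit (chromosome 13, 16004256 to 16031609, ENSMUSG00000041324), had 2.01, 33.5 and 27.3 CPM in GV Null and 4.88, 3.71 and 1.90 CPM in GV WT. In eggs it had 0.60, 0.11, 0.13 and 0.71 CPM in MII Null and 0.30, 0.21 and 0.10 CPM in MII WT. All 3 subunit genes were thus highest in GV Null replicate 2, then in GV Null replicate 3, and low in eggs. The transcript B230303A05Rik, which overlaps Inhba, had at most 6 counts in any library.

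In GV oocytes none of the 10 genes differed between Null and WT beyond the spread between libraries. The steroid synthesis genes Hsd3b1 and Cyp11a1 averaged 104 ± 135 and 37.1 ± 46.4 CPM in GV Null against 7.52 ± 6.69 and 2.77 ± 2.30 CPM in GV WT (SD, n = 3 each). The subunit genes Inha, Inhba and Inhbb averaged 20.6 ± 23.1, 20.9 ± 16.7 and 8.33 ± 5.94 CPM in GV Null against 2.37 ± 1.01, 3.50 ± 1.505 and 2.49 ± 1.18 CPM in GV WT. The means differed by a factor of several, but the Null SD was about as large as the Null mean for Hsd3b1, Cyp11a1, Star and Inha.

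In edgeR's quasi-likelihood test with Benjamini-Hochberg adjustment over all 20143 genes, 0 of the 10 passed the adjusted p threshold of 0.05. In this comparison 0.0546% of all genes were called, 0.0248% higher and 0.0298% lower, and 6 of the 10 had an unadjusted p under 0.05, as had 6.66% of all genes. DESeq2 also called 0 of them. The log2 fold change was 3.78 for Hsd3b1 (SE 1.27, adjusted p = 0.685), 3.73 for Cyp11a1 (SE 1.41, adjusted p = 0.714) and 2.45 for Star (SE 0.917, adjusted p = 0.711). Among the subunit genes it was 3.11 for Inha, 2.58 for Inhba and 1.74 for Inhbb, with adjusted p values of 0.731, 0.675 and 0.768 in that order. Foxl2 had 2.12 and Fshr 1.30, with adjusted p values of 0.772 and 0.711. For the steady genes the values were small, 0.25 for Nr5a2 (SE 0.134, adjusted p = 0.796) and -0.08 for Cyp19a1 (SE 0.104, adjusted p = 0.921).

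Of the 10 genes 9 had a log2 fold change above 0, with a median of 2.29, while 53.7% of all genes tested were above 0, with a median of 0.0177. None of the 10 had Null and WT libraries that did not overlap, where 6.83% of all genes were higher without overlap and 5.93% lower, because GV Null replicate 1 was within or below the WT range for every gene. The direction rested on GV Null replicates 2 and 3. Without them, in a fit that takes the lone GV Null library to vary like the other groups, all 10 values were below 0, with a median of -0.40. They were -1.43 for Hsd3b1, -2.06 for Cyp11a1, -0.44 for Inha and -0.80 for Inhba. Their sign followed from the choice of library, since GV Null replicate 1 lay below the GV WT mean for all 10 genes. It is therefore no test of a direction. Without GV Null replicate 1 instead, Inhba alone passed the test, with a log2 fold change of 3.11 and an adjusted p of 0.0116, in a fit that called 0.666% of all genes. With no filter on low counts 8 of the 10 passed, and 1.63% of 39595 genes.

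**Figure D2:**
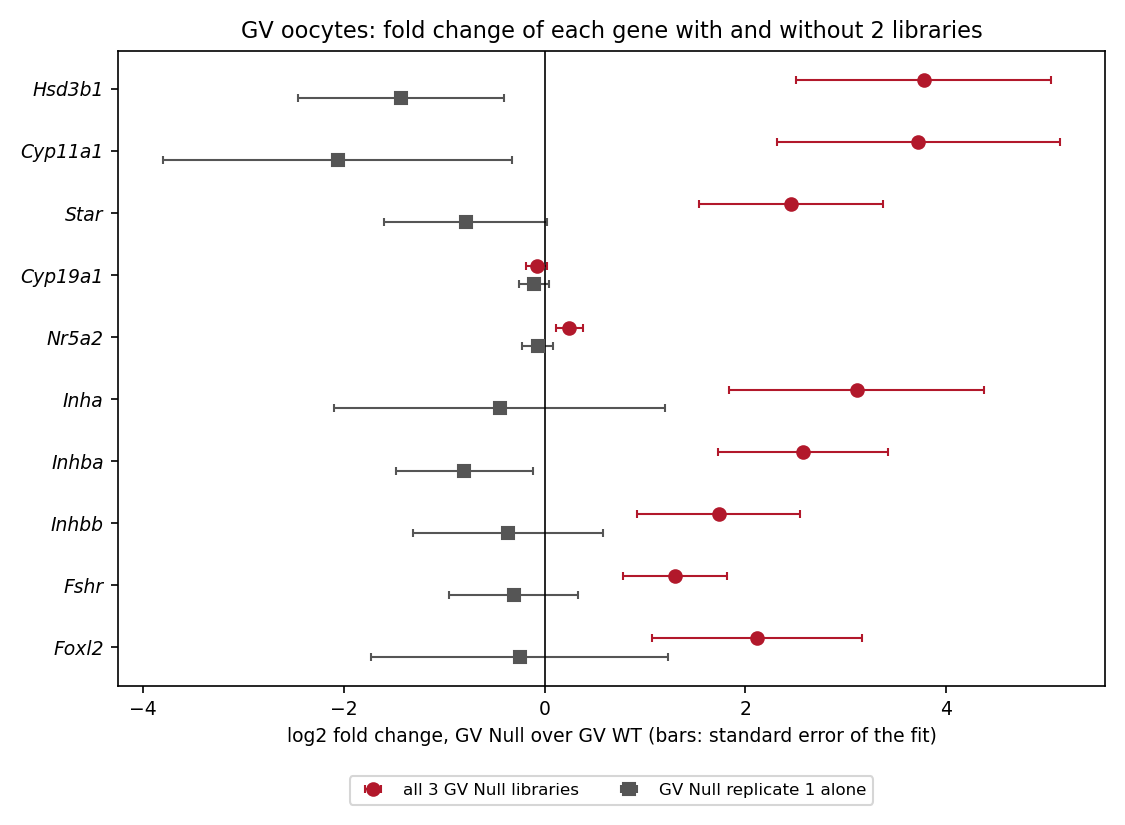
Log2 fold change of each of the 10 genes, GV Null over GV WT, with the standard error of the fit as bars, for all 3 GV Null libraries (circles) and for GV Null replicate 1 alone (squares). For Hsd3b1 the value is 3.78 with all libraries and -1.43 without GV Null replicates 2 and 3, while Cyp19a1 stays near 0 in both.

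The 2 high GV Null libraries did not exceed WT by the same factor in all genes. GV Null replicate 2 exceeded the GV WT mean 34.3-fold for Hsd3b1, 32.3-fold for Cyp11a1, 19.6-fold for Inha, 10.8-fold for Star, 9.57-fold for Inhba and 5.49-fold for Inhbb. GV Null replicate 3 exceeded it 6.88-fold for Hsd3b1, 7.67-fold for Cyp11a1, 5.72-fold for Inha, 5.24-fold for Star, 7.82-fold for Inhba and 3.76-fold for Inhbb. The factors thus ran from 5.49 to 34.3 among these 6 genes in replicate 2 and only from 3.76 to 7.82 in replicate 3. GV Null replicate 1 was below the GV WT mean for all 10 genes, at 0.372 of it for Hsd3b1 and 0.240 for Cyp11a1.

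The balance between steroid synthesis and inhibin genes differed between libraries. Of the counts of Hsd3b1, Cyp11a1, Star, Inha, Inhba and Inhbb together, the first 3 genes held 79.6% in GV Null replicate 2 (95% exact binomial interval 79.0% to 80.2%) and 61.9% in replicate 3 (60.6% to 63.3%), but 43.8% in replicate 1 (39.0% to 48.8%). In GV WT they held 69.5% in replicate 1 (67.1% to 71.8%), 43.3% in replicate 2 (39.7% to 47.0%) and 49.3% in replicate 3 (43.8% to 54.7%). These intervals cover counting error only. The share, which includes Hsd3b1 itself, was highest in the library with the most Hsd3b1 within each genotype in GV oocytes, and the 2 genotypes overlapped. In eggs, where Hsd3b1 was low, the share was 75.9%, 96.1%, 96.0% and 80.0% in MII Null and 91.8%, 93.7% and 96.7% in MII WT. There it was not highest in MII Null replicate 4, the egg library with the most Hsd3b1. Within the inhibin genes the ratio of Inhba to Inha counts was 1.15, 0.722 and 2.02 in GV Null and 1.77, 1.18 and 1.55 in GV WT. GV Null replicates 2 and 3, which both had high totals, therefore held the lowest and the highest ratio of Inhba to Inha. Fewer somatic cells and less RNA per cell cannot be told apart in such pools.

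**Figure D3:**
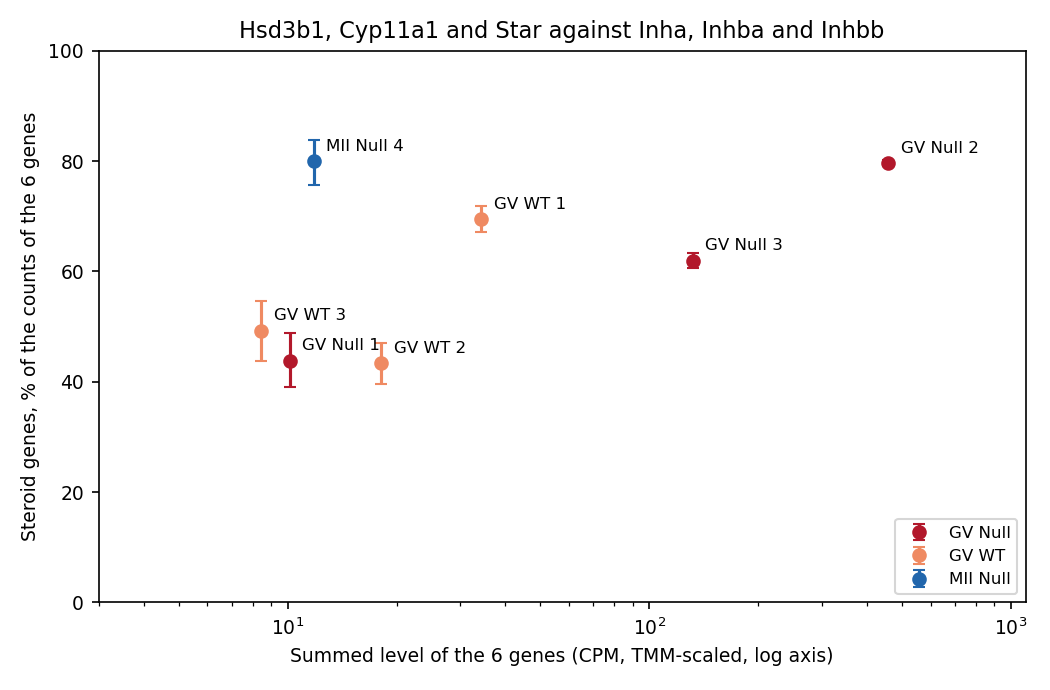
Share of Hsd3b1, Cyp11a1 and Star in the counts of 6 steroid and inhibin genes in percent with 95% exact binomial intervals, against the summed level of the 6 genes in TMM-scaled CPM on a log axis, for each GV library and MII Null replicate 4; the other 6 egg libraries are not plotted. The share is 79.6% in GV Null replicate 2 and 43.8% in GV Null replicate 1.

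In MII eggs 0 of the 10 genes passed the test between Null and WT, where 0.0546% of all genes were called, 0.0149% higher and 0.0397% lower. By DESeq2 the number was also 0, and 2 of the 10 had an unadjusted p under 0.05, as had 6.35% of all genes. The levels were low in both genotypes for the uneven genes. Their sum was 3.22 to 13.3 CPM in MII Null, with a median of 3.56, against 4.54 to 4.96 CPM in MII WT. MII Null replicate 4 gave the highest value, and the other 3 MII Null libraries lay below all 3 MII WT libraries.

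Of the 10 genes 2 had lower values in every MII Null library than in any MII WT library, and 0 had higher ones, where 3.13% of all genes were lower without overlap and 2.94% higher. Fshr averaged 0.599 ± 0.259 CPM in MII Null (n = 4) and 1.49 ± 0.288 CPM in MII WT (n = 3), a log2 fold change of -1.31 (SE 0.502, adjusted p = 0.721 by edgeR). Cyp19a1 averaged 30.8 ± 2.46 CPM in MII Null and 36.5 ± 2.63 CPM in MII WT, a log2 fold change of -0.24 (SE 0.0972, adjusted p = 0.727). Neither passed the test. Nr5a2 had 0.26 (SE 0.126, adjusted p = 0.793), with 72.5 ± 11.2 CPM in MII Null and 60.5 ± 1.48 CPM in MII WT. For Inha, Inhbb and Foxl2 all MII WT libraries were at 0, so no fold is given. Hsd3b1 had a log2 fold change of 0.79 and Cyp11a1 of 0.89, and without MII Null replicate 4 the value of Cyp11a1 was -1.10.

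The difference between the effects of the genotype in eggs and in GV oocytes was called for 0 of the 10 genes by edgeR, where 0.00496% of all genes were called. DESeq2 called 0 as well. Fshr alone had an unadjusted p under 0.05 here, with a difference of -2.61 on the log2 scale (SE 0.723, adjusted p = 0.999), where 3.38% of all genes had one.

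Between stages, WT eggs held less of most of the uneven genes than WT GV oocytes, and more Cyp19a1. In edgeR's test 4 of the 10 passed in WT, where 42.7% of all genes were called, 19.9% higher and 22.8% lower, so the share of the 10 was close to that of all genes. Cyp19a1 rose by 0.40 on the log2 scale (SE 0.104, adjusted p = 0.0048). Inhba fell by 4.12 (SE 1.26, adjusted p = 0.0244). Inhbb and Foxl2 also fell, with adjusted p values of 0.00795 and 0.0432, and since all MII WT libraries were at 0 the fall is given against the limit of 3 counts per library, as at least 25.1-fold for Inhbb and at least 3.81-fold for Foxl2. Inha was at least 23.9-fold lower in MII WT by the same measure but missed the threshold (adjusted p = 0.081). Hsd3b1 had a log2 fold change of -2.37 (adjusted p = 0.243), Cyp11a1 -2.31 (0.345) and Star -0.69 (0.618). Fshr alone of the uneven genes was above 0, at 1.02 (SE 0.526, adjusted p = 0.131), and did not pass.

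Without overlap, 6 of the 10 genes were lower in MII WT than in GV WT, namely Hsd3b1, Cyp11a1, Inha, Inhba, Inhbb and Foxl2, where 30.1% of all genes were. Cyp19a1 and Nr5a2 were higher without overlap, where 28.2% of all genes were. The call of Foxl2 was lost when any 1 of the 6 WT libraries was left out, and that of Inhba when GV WT replicate 1 or any MII WT library was left out. Cyp19a1 and Inhbb passed in each of those fits.

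In the Null, 8 of the 10 genes fell between GV and MII, all the uneven ones, where 49% of all genes were called, 26.9% lower and 22.1% higher. The log2 fold change was -5.69 for Inhba (SE 0.963, adjusted p = 0.000807), -6.84 for Inhbb (SE 1.12, adjusted p = 0.00117) and -5.76 for Inha (SE 1.41, adjusted p = 0.0115). It was -5.36 for Hsd3b1 (SE 1.27, adjusted p = 0.00626), -5.14 for Cyp11a1 (SE 1.42, adjusted p = 0.0136) and -3.62 for Star (SE 0.906, adjusted p = 0.00779). Foxl2 had -3.63 and Fshr -1.58, with adjusted p values of 0.0176 and 0.014. Cyp19a1 had 0.23 (adjusted p = 0.0568) and Nr5a2 0.16 (adjusted p = 0.324).

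This count also rested on GV Null replicates 2 and 3. Without them 3 of the 10 passed, Inhba and Inhbb lower and Nr5a2 higher, with a log2 fold change of 0.47 for Nr5a2 (adjusted p = 0.0272), and Cyp11a1 had a value of 0.66. In that fit 26.1% of all genes were called. With MII Null replicate 4 left out as well, 5 passed, where 30.4% of all genes did. In all libraries only 3 of the 10 genes were lower in MII Null than in GV Null without overlap, where 25.2% of all genes were, and 0 were higher, where 21.2% of all genes were.

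**Figure D4:**
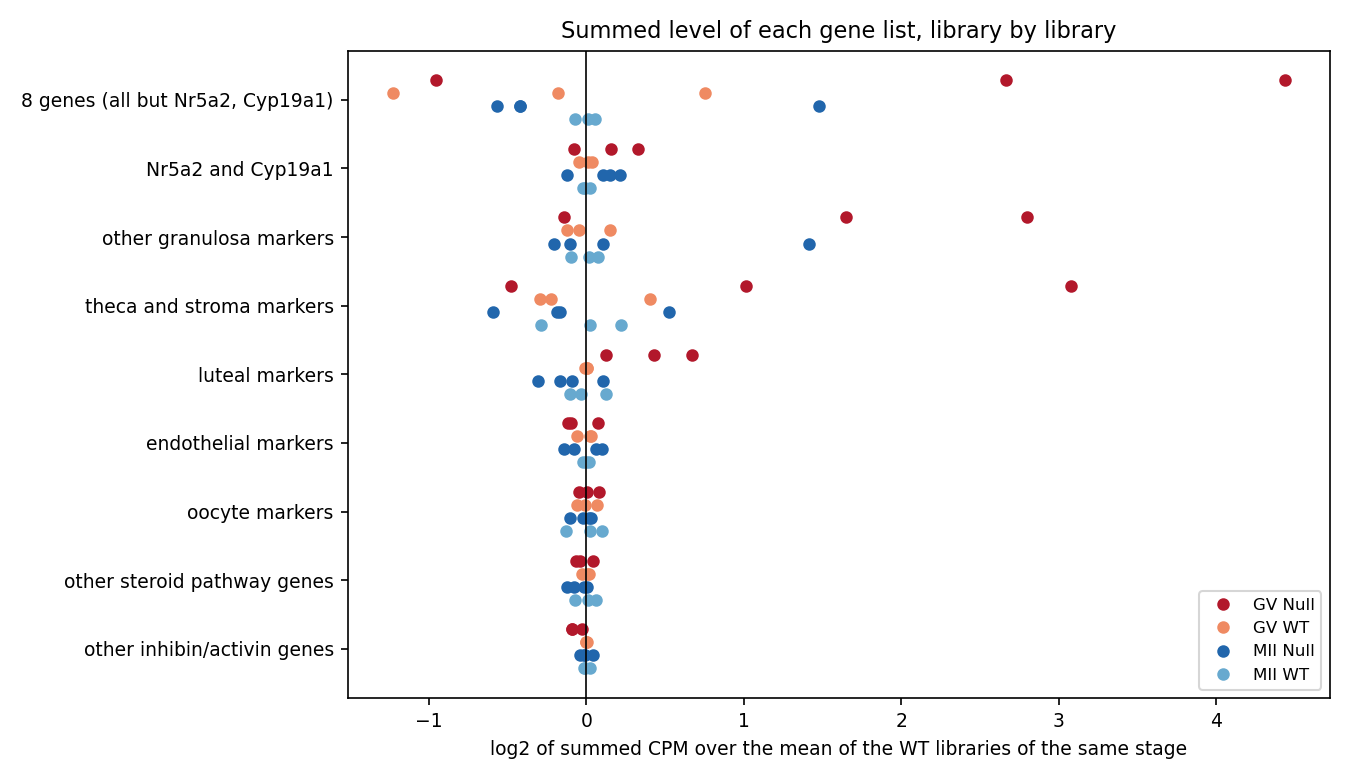
Summed level of each gene list in every library, as the log2 of its ratio to the mean of the WT libraries of the same stage, with 1 point per library and a row of points per group. GV Null replicates 2 and 3 stand at 4.44 and 2.67 for the 8 uneven genes and at 2.80 and 1.65 for the other granulosa markers, while the oocyte markers stay between -0.13 and 0.10.

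The summed level of the other steroid synthesis genes was much the same in all GV libraries, although several of these genes were highest in GV Null replicates 2 and 3. Of 23 further steroid synthesis genes 17 were tested in GV oocytes, 14 had a log2 fold change above 0, the median was 0.15, and 0 passed in the comparison of Null and WT. Npc1, which exports cholesterol from lysosomes, had 537, 415 and 436 CPM in GV Null and 515, 507 and 523 CPM in GV WT. Soat1, which esterifies cholesterol, had 98.8, 129.3 and 116.6 CPM in GV Null and 103.1, 106.9 and 101.6 CPM in GV WT. Npc1 was lowest and Soat1 highest in GV Null replicates 2 and 3, and neither passed the test (adjusted p = 0.805 for Npc1 and 0.83 for Soat1). The summed level of the 23 genes was 895 to 965 CPM in GV Null and 918 to 948 CPM in GV WT, and without GV Null replicates 2 and 3 the median was -0.06. Fdxr, Fdx1 and Scarb1, chosen after their values were seen, were higher in those 2 libraries than in the other GV libraries. Fdxr, the ferredoxin reductase that feeds electrons to CYP11A1, had 1.11, 6.79 and 1.79 CPM in GV Null and 1.59, 1.15 and 1.22 CPM in GV WT. Fdx1, the ferredoxin that carries these electrons, had 11.4, 24.5 and 19.3 CPM in GV Null and 9.83 to 14.7 CPM in GV WT. Scarb1, the receptor for high-density lipoprotein, had 15.3, 27.4 and 28.9 CPM in GV Null and 16.8, 17.8 and 18.4 CPM in GV WT (adjusted p = 0.696).

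For 15 further genes of the inhibin and activin pathway the summed level was also similar, at 886 to 925 CPM in GV Null and 943 to 946 CPM in GV WT. Of these 13 were tested in GV oocytes, 6 were above 0, the median was -0.03 and 0 passed. Smad3, which carries the activin signal to the nucleus, had 291, 270 and 276 CPM in GV Null and 283, 287 and 288 CPM in GV WT. Furin, a protease that cleaves the subunit precursors, had 200.1, 189.5 and 198.9 CPM in GV Null and 208, 197 and 204 CPM in GV WT. Acvr1b, Smad2, Smad4 and Tgfbr3, which encode an activin receptor, 2 signal carriers and betaglycan, the inhibin co-receptor, were lower in all GV Null than in all GV WT libraries, 4 of 13 where 5.93% of all genes were. Their differences were small, from -0.14 to -0.09 on the log2 scale, and none passed the test, with adjusted p values of 0.778 to 0.853. Among genes of this pathway at low levels, Fst and Smad7, the second chosen after its values were seen, were highest in GV Null replicates 2 and 3. Fst, for the activin-binding protein follistatin, had 0.71, 9.28 and 4.12 CPM in GV Null and 0.69, 1.33 and 0.57 CPM in GV WT (adjusted p = 0.725). Smad7, for an inhibitory SMAD, had 0.25, 1.86 and 0.80 CPM in GV Null and 0.56, 0.30 and 0.40 CPM in GV WT (adjusted p = 0.768).

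Among 12 other gonadotropin receptor and granulosa transcription factor genes, 10 were tested, 9 were above 0 in GV oocytes with a median of 1.46, 0 passed, and the median without GV Null replicates 2 and 3 was -0.26. The filter on low counts asks only for enough counts in as many libraries as the smallest group holds, whatever their group. Genes high in GV Null replicates 2 and 3 could therefore enter through them, and the number above 0 is partly fixed by this. Lhcgr had 518 and 338 counts in these libraries, 19 in GV WT replicate 1 and MII Null replicate 4, and at most 5 elsewhere. Lhcgr, the receptor for luteinizing hormone and a mural granulosa and theca gene, had 0, 13.6 and 9.29 CPM in GV Null and 0.43, 0.13 and 0.05 CPM in GV WT. Its value was 5.19 on the log2 scale (SE 1.59, adjusted p = 0.67), and GV Null replicate 1 had no count of it. Esr1, Esr2 and Gata4 behaved like Nr5a2 and Cyp19a1, with reads in all 13 libraries. Gata4, for a zinc finger factor of granulosa cells, had 31.3, 46.0 and 40.1 CPM in GV Null and 33.9, 34.8 and 37.2 CPM in GV WT. Esr1, for an oestrogen receptor, had 57.0, 60.4 and 52.9 CPM in GV Null and 53.4, 58.4 and 57.1 CPM in GV WT.

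The summed level of other granulosa markers was high in the same GV libraries as the uneven genes, but not every marker was. Of 22 other cumulus and mural granulosa markers 12 were tested, all 12 were above 0 in GV oocytes with a median of 2.12, 0 passed, and the median without GV Null replicates 2 and 3 was -0.26. Their sum was 14.0, 107.7 and 48.6 CPM in GV Null and 14.96, 17.2 and 14.2 CPM in GV WT. In eggs it was 8.82, 7.11, 7.62 and 21.9 CPM in MII Null and 7.65 to 8.61 CPM in MII WT. Vcan, for the matrix proteoglycan versican, had 1.94, 21.9 and 8.30 CPM in GV Null and 1.46, 3.46 and 2.05 CPM in GV WT, and among eggs 6.06 CPM in MII Null replicate 4 against at most 0.508 CPM in the other 6. Kitl, for the KIT ligand, varied little, at 4.32 to 7.18 CPM over the 13 libraries. Ptgs2, for the prostaglandin synthase COX-2, had 2.58, 1.62 and 1.43 CPM in GV Null and 1.30, 1.28 and 1.35 CPM in GV WT. Has2, for a hyaluronan synthase of the cumulus matrix, was chosen after its values were seen and had 1.52, 0.89 and 0.74 CPM in GV Null and 0.72, 1.30 and 1.15 CPM in GV WT. Among GV libraries both were highest in GV Null replicate 1.

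Among markers of other somatic cells, the summed level of the theca and stroma list was highest in GV Null replicates 2 and 3. The summed level of the endothelial list was not, although single endothelial markers were. The 10 theca and stroma markers summed to 4.32, 50.9 and 12.2 CPM in GV Null and 7.97, 5.16 and 4.91 CPM in GV WT, with all 7 tested genes above 0, a median of 2.72 and 0 passed. Col1a2, a collagen gene of fibroblasts, had 0.02, 8.88 and 1.48 CPM in GV Null and 0.76, 0.05 and 0.12 CPM in GV WT, and 0 in all 7 egg libraries. Not every marker of the list was highest in both libraries. In GV Null replicate 3 Dcn had 1.07 CPM, Gli1 0.88 CPM and Lum 0.14 CPM. GV WT replicate 1 had more of each, at 1.43, 1.03 and 0.18 CPM. The theca enzymes and hormones themselves were near 0, with Cyp17a1 at 0, 0.47 and 0.88 CPM in GV Null and at most 0.02 CPM in GV WT, and with Insl3 at a single count in GV Null replicate 2. The 7 blood and immune markers, none of which passed the filter on low counts, summed to 0.07, 8.86 and 0.74 CPM in GV Null and to at most 0.224 CPM in GV WT. In eggs they summed to 0 to 1.53 CPM in MII Null, highest in replicate 3, and to at most 0.0345 CPM in MII WT. The 5 endothelial markers summed to 91.6, 80.5 and 81.4 CPM in GV Null and 88.9, 88.6 and 83.6 CPM in GV WT. Of the 5 endothelial markers Pecam1 and Tek had reads in all libraries, and Pecam1 alone had 62.9 to 75.5 CPM in GV Null. Cdh5 had 0, 1.05 and 0.36 CPM in GV Null and at most 0.0896 CPM in GV WT. Emcn, chosen after its values were seen, had 0, 0.24 and 0.19 CPM in GV Null, from at most 9 counts. In GV WT Emcn had at most 0.0896 CPM. Both Cdh5 and Emcn were highest in GV Null replicates 2 and 3. Kdr, a receptor of vascular endothelial growth factor in the same list, had 2.01, 2.31 and 2.45 CPM in GV Null and 3.38, 3.63 and 3.07 CPM in GV WT. In eggs it had 2.86, 2.00, 2.54 and 3.11 CPM in MII Null and 3.78, 3.48 and 3.68 CPM in MII WT. Kdr was thus lower in all Null than in all WT libraries at both stages. Of all genes 5.93% were so in GV and 3.13% in MII, and the share at both stages together was not counted. It did not pass the test (log2 -0.58, SE 0.194, adjusted p = 0.67 in GV, and log2 -0.47, SE 0.182, adjusted p = 0.721 in MII). Of the 5 markers 4 were tested in GV, 1 was above 0, the median was -0.06 and 0 passed. The 1 above 0 was Cdh5, with 40 and 13 counts in GV Null replicates 2 and 3, 11 in MII Null replicate 4 and at most 4 elsewhere. Of 4 luteal markers 3 were tested, 3 were above 0, the median was 1.75 and 0 passed. Prlr, the prolactin receptor gene among them, had 92.7, 120.2 and 104.0 CPM in GV Null and 84.0, 84.9 and 85.0 CPM in GV WT. It was higher without overlap, as 6.83% of all genes were (log2 0.32, SE 0.104, adjusted p = 0.651). All 8 oocyte markers were tested, 6 were above 0 with a median of 0.03, and 0 passed. In MII eggs 0 genes of any of these lists passed between Null and WT. The part of these cells in the levels of the 8 genes was not tested.

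The uneven genes also moved together within stages, Fshr the least of the 8. On log2(CPM + 0.5) values centred on the mean of their stage, the 28 pairs among the 8 had Pearson correlations of 0.669 to 0.966 over the 13 libraries, with a median of 0.933. The low end was Fshr, and the other 7 had 0.878 to 0.966 among themselves. Nr5a2 had 0.268 to 0.707 with the 8, and Cyp19a1 -0.320 to 0.228. The libraries share their scaling, and GV Null replicates 2 and 3 weigh heavily. Without them the 28 pairs had 0.0874 to 0.895, with a median of 0.637, over 11 libraries. Fshr then had from 0.0874 with Inha to 0.638 with Star. These values are a description, with no test.

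The genes most like the summed level of the 10 genes were looked for among 11511 other named genes with a mean of at least 1 CPM. The first 10 were Aebp1, Mbnl2, Ltbp1, Hspg2, Irs1, Clu, Gm2a, Acsbg1, Mgarp and Gramd1b, with correlations from 0.990 down to 0.968 over the 13 libraries, and 0.716 to 0.867 without GV Null replicates 2 and 3. In all, 71 genes were above 0.9. Aebp1 and Hspg2 encode matrix proteins, Ltbp1 a binding protein of latent TGF-beta, and Clu the secreted chaperone clusterin. Clu had 0.02, 27.0 and 1.90 CPM in GV Null and 0.69, 0.23 and 0.07 CPM in GV WT, the same order of Null libraries as for Hsd3b1. That order follows from the choice, since these genes were picked by likeness to a sum that holds Hsd3b1. Some also reached the mean of 1 CPM only through GV Null replicate 2. Aebp1 and Ltbp1, both at a mean of 1.03 CPM, had 10.3 and 9.28 CPM there.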

How the data were processed

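The authors deposited raw read counts per gene of Ensembl release 93 for 54232 genes in 13 libraries, with no normalization. The submitters' processing notes list STAR 2.5.3a, bedtools 2.26.0 and the mouse build GRCm38.p6 (mm10). The sources used here do not name the counter or say how strand and multiply mapped reads were treated. Counts were fitted with edgeR 4.0.16 (TMM factors, filterByExpr by group, glmQLFit robust, glmQLFTest) in R 4.3.3, in 1 model of 4 groups over all 13 libraries. The 5 comparisons were two-sided, with Benjamini-Hochberg adjustment over the 20143 genes tested and a threshold of 0.05. The fit was tested on simulated data. Libraries of a group differed by 5.37 to 38.3 in chi-square per degree of freedom, so none was a copy of another.

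The members and gene lists were chosen with earlier results of these data known. All 10 genes are named, with up to 6 genes of each list by mean CPM and the 10 most like the summed level, by Pearson correlation. Fst, Lhcgr, Hsd17b1, Cyp17a1 and Akr1c18 stand in more than 1 list. Coordinates, overlaps and promoters come from RefSeq tables of GRCm38.p6. Alternatives were other scaling and filters, DESeq2 1.42.0, only the groups compared, a replicate block and fits without named libraries.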

Additional observations from a re-analysis of the deposited data

Results flagged for a closer look

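In MII Null, the only group of 4 libraries, replicate 4 lay far from the other 3 in 5 of the 10 genes. It was the highest library each time. Hsd3b1 had 4.79 CPM there, against 1.58 to 1.91 CPM in the other 3. Cyp11a1 had 3.42 CPM against 0.10 to 0.41 CPM, and Inha 1.37 CPM against 0 to 0.13 CPM. Inhbb had 0.28 CPM and Foxl2 0.497 CPM, where the other 3 had at most a single count. The gap to the nearest library was 0.897 to 1 of the group's range, above the critical value of 0.829 for 4 libraries. Of 11 measures tested in this way 5 stood out, where chance marks about 1 in 20, and the genes share their libraries. That rate does not hold for values tied at or near 0 counts, as those of Inhbb and Foxl2 were. The 5 of 11 can therefore not be set against it. In MII Null replicate 4 the other granulosa markers summed to 21.9 CPM, against 7.11 to 8.82 CPM in the other 3. Their part in these values was not tested.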

How the results depend on the processing

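Among the alternative values of single genes, 549 kept their direction and side of the threshold, 33 passed it newly, 24 no longer passed and 24 turned direction. Without GV Null replicates 2 and 3, the GV values on the log2 scale were -1.43 for Hsd3b1, -2.06 for Cyp11a1, -0.79 for Star, -0.070 for Nr5a2, -0.44 for Inha, -0.80 for Inhba, -0.36 for Inhbb, -0.31 for Fshr and -0.25 for Foxl2. The difference between eggs and GV oocytes became 2.22 for Hsd3b1, 2.96 for Cyp11a1, 0.31 for Star and 1.79 for Inhba, and MII against GV in Null 0.66 for Cyp11a1 and 0.026 for Fshr, with 3 genes passing. With MII Null replicate 4 also left out, an alternative added after seeing the data, the difference was 1.72 for Hsd3b1, 0.96 for Cyp11a1 and 1.37 for Inhba, and 5 genes passed in MII against GV in Null.

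Without a filter on low counts, 8 genes passed in GV, 5 in MII, 4 in the difference and 8 in MII against GV in WT, where a fit of only the groups compared gave 7. For the difference and for MII against GV the share of all genes in these fits is not given. In the main fits it was 0.00496% for the difference and 42.7% for MII against GV in WT. Over all genes the filter mattered too, with 644 against 11 called in GV and 290 against 11 in MII, of 39595 genes without the filter and 20143 with it, and DESeq2 called 27 and 41. Without GV Null replicate 1, 139 genes were called in GV, and without GV Null replicates 2 and 3, 1. Leaving out 1 library at a time gave 0 to 1 genes of the 10 passing in GV. In MII against GV it gave 2 to 3 in WT and 7 to 9 in Null. With all libraries 42.7% of all genes passed in WT and 49% in Null, and the shares with 1 library left out are not given. Leaving out 1 library turned the difference for Nr5a2 (-0.12 without GV Null replicate 1, -0.03 without MII Null replicate 2), Cyp11a1 in MII (-1.10 without MII Null replicate 4) and Star in MII against GV in WT (0.35 without GV WT replicate 1). The ranges over all fits without named libraries were -3.99 to 2.22 for Hsd3b1, -4.83 to 2.96 for Cyp11a1 and -2.10 to 1.79 for Inhba in the difference. There they were also -0.12 to 0.18 for Nr5a2. They were -1.10 to 1.32 for Cyp11a1 in MII and -1.08 to 0.35 for Star in MII against GV in WT. Inha, Inhbb and Foxl2 have no value in MII or the difference, since all MII WT libraries were at 0. The causes were not tested.

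The summed level of the 10 genes gave a log2 ratio of 1.51 for GV Null over WT, 0.61 to 1.94 with 1 library left out, -0.22 without GV Null replicates 2 and 3, and 3.25 without Nr5a2 and Cyp19a1. In MII the ratio was 0.10, and 0.31 without Nr5a2 and Cyp19a1. For MII over GV in WT it was -0.03, with -1.10 from geometric means and -2.17 without Nr5a2 and Cyp19a1. In Null it was -1.43, with -5.11 without Nr5a2 and Cyp19a1 and 0.29 without GV Null replicates 2 and 3. The leave-out of the 2 steady genes was chosen after seeing the data.

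Same-numbered libraries correlated at -0.0971 to 0.225 in their deviations from the group means, and differently numbered libraries at -0.185 to 0.203. These ranges overlapped, and with so few libraries they cannot tell whether libraries of the same number shared a day or animal. With the replicate number as a block, 0 genes passed in GV, MII and the difference, 2 in MII against GV in WT and 9 in Null. The share of all genes called with the block is not given, and without it this was 42.7% in WT and 49% in Null. The block turned Cyp11a1 in MII (-1.12) and the difference for Nr5a2 (-0.0105). The detection limit of 0.0727 to 0.0972 CPM was set at 3 counts on library totals without TMM factors. Values given below it rest on very few counts.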
